A study of Mus musculus with 4 samples.

Results

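Chemokines, interleukins and their receptors were followed in the liver of polygenic obese male mice. The set held every gene probe whose description on the array names a chemokine or an interleukin, in any case of letters. That was 106 of 20868 gene probes: 1 chemokine, 24 chemokine receptors, 32 interleukins, 34 interleukin receptors and 15 other proteins whose description holds either word. RefSeq names could be given to 92 of them, 88 through the accession in the files and 4 through the description, for 91 distinct symbols, and 14 probes stayed unnamed and are called here by what the files say of them. All mice were obese males at day 14 of feeding, and the arms differed in a fatty acid at 1% of the diet, which was trans-10, cis-12 conjugated linoleic acid (CLA, an isomer known to lower body fat in mice) or, as control, linoleic acid. Each RNA sample was a pool from 4 or 5 livers, and 4 two-colour arrays set a CLA pool against a control pool. The red dye Cy5 carried CLA on arrays 1 and 2, and the green dye Cy3 carried it on arrays 3 and 4. Whether any arrays were hybridised with the same pool is not stated, so p-values cover the spread among 4 arrays, part or all of which may be technical.

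Chemokines are small secreted proteins that guide the movement of leukocytes through receptors coupled to G proteins. Interleukins are secreted signals between cells, mostly of the immune system, and many of them act through receptors that switch on Janus kinases and STAT transcription factors, while the interleukin-1 family acts through MyD88 and IRAK kinases on NF-kappaB. In liver, resident macrophages, T cells and natural killer cells release and receive many of these signals, and hepatocytes answer interleukin-6 and interleukin-1 with the acute phase response. In whole tissue, fewer cells of a type and less RNA per cell cannot be told apart.

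Most of the 106 probes gave a signal that the scanner software called well above background, but many were dim. Over both channels of the 4 arrays, 740 of 848 readings (87.3%) were well above background, against 91.2% for all gene spots. The share was 91.7% for chemokine receptors, 83.2% for interleukins, 84.9% for interleukin receptors and 93.3% for the other proteins, and Cxcl16, the chemokine, was well above background in all 8 channels. By array, the CLA channel had 71.7%, 90.6%, 87.7% and 91.5% of the set well above background on arrays 1 to 4, and the control channel 87.7%, 96.2%, 90.6% and 82.1%. The diets overlapped. The lowest share in each diet came from Cy5, on array 1 for CLA and on array 4 for control. This call was lenient, since it also held for 20.4% of readings of the 162 negative control spots per array, and for 56.8% of them in the Cy5 channel of array 2. Against a stricter bar, the 95th percentile of the background-subtracted signal of the negative controls in the same channel, 77.6% of the readings of the set were above it (83.5% of all gene spots). By that bar 55 of the 106 probes were above the negative controls in all 8 channels, 27 in 4 or fewer, and 4 in none, namely Il20, Il5ra, Il12rb2 and a second probe of Il10rb.

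**Figure D1:**
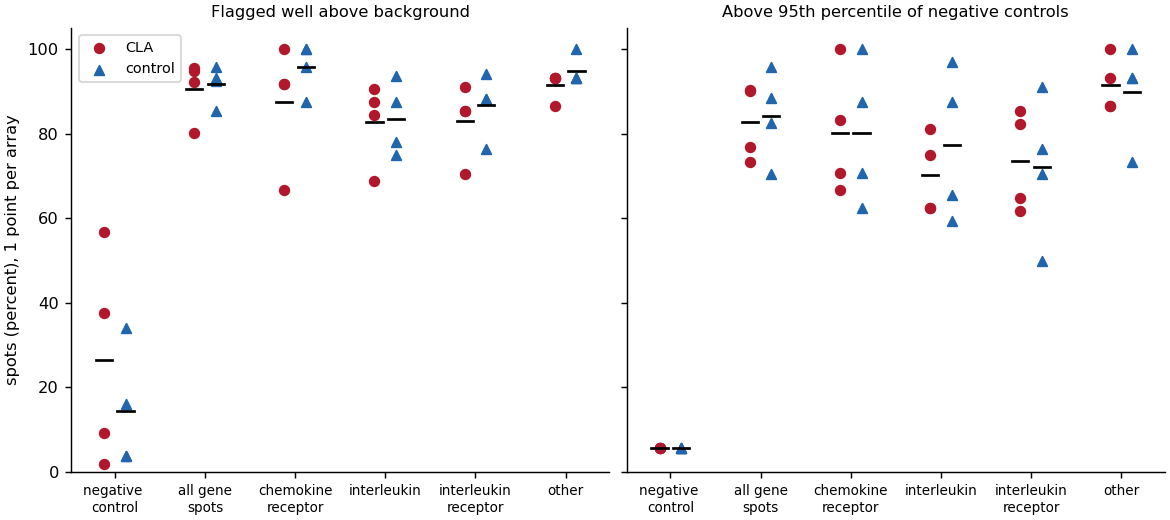
Percent of spots (y axis) that were flagged well above background (left) or above the 95th percentile of negative controls (right), by class (x axis), with 1 point per array for CLA (circles) and control (triangles) and a line at the mean of 4 arrays; Cxcl16 is not drawn. Interleukins and interleukin receptors lie below all gene spots on average in both panels (83.2% and 84.9% against 91.2% on the left).

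The comparison of CLA with control asks whether the diet changed the expression of these genes in liver. No gene of the set did so past the threshold. With a model of diet and dye fitted to all 20292 probes that passed the filter on dim signals (limma, Benjamini-Hochberg adjusted p under 0.05), 14 probes were called, which is 0.069% of those tested, and of the set 0 of 102 tested were. The other 4 (Il5ra, Il12rb2, the second Il10rb probe and a Toll/interleukin receptor domain probe) did not pass the filter. The lowest adjusted p in the set was 0.128 (limma), for Il3. At an unadjusted limma p under 0.05 the set had 8 probes (7.84% of its 102), against 15.9% of all probes tested: 3 lay higher with CLA (2.94%, against 8.74% of all probes) and 5 lower (4.90%, against 7.15%). This count moved with the arrays and the dye: without array 1 it was 26 of 102 (25.5%, against 22.2% of all probes), without array 2 it was 2 (1.96%, against 8.52%), and with the dye size equalised it was 9 (8.82%, against 9.39%). The 3 were Il3, Ccr1 and Mydgf, and the 5 were Il5, Il22, Il4, Il19 and Il6. The fitted effect was above 0 in 56 of 102 (54.9%, against 52.3% of all probes) with a median log2 CLA over control of 0.0077 (0.0059 over all probes), and 95 of 102 lay within 0.2 of 0 on that scale.

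The intervals set how small a change could be seen. The median 95% interval of a fitted log2 effect in the set reached 0.15 to either side, and for 100 of 102 probes the whole interval lay within 0.5 of 0, the exceptions being Il3 and Ccr3. These effects are differences of log2 signals after an offset of 50 was added, which shrinks the change of dim probes. As measured, 6 of 102 probes (5.88%) had the same sign on all 4 arrays, against 9.19% of all probes: Ccr1, Ccrl2 and a chemokine receptor-like 2 probe above 0, and Il19, Il1a and a putative chemokine receptor probe below 0.

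**Figure D2:**
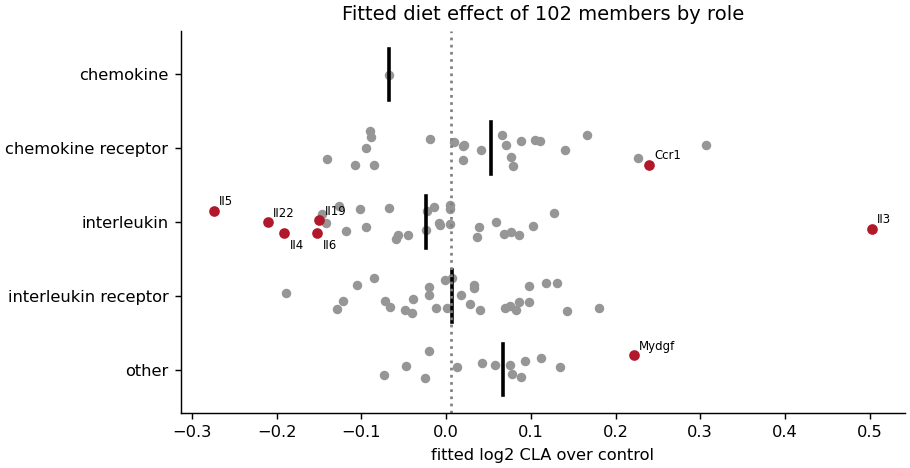
Fitted log2 CLA over control (x axis) of the 102 tested probes by class (y axis, points spread vertically for sight only), with a bar at each class median and a dotted line at the median of all probes tested. The 8 labelled red points had an unadjusted p under 0.05; interleukins have a median of -0.02 and chemokine receptors of 0.05, and no point passed the adjusted threshold.

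Of the ligands, Cxcl16, which macrophages and endothelium make in soluble and membrane-bound form and which attracts Cxcr6-bearing T cells, was the only chemokine that the descriptions spelled out. Its background-subtracted signals were 170, 258, 268 and 291 with CLA and 302, 458, 411 and 220 with control on arrays 1 to 4, and the diets overlapped. The log2 ratio of CLA over control was -0.15, -0.21, 0.03 and 0.06, below 0 in both arrays with CLA in Cy5 and above 0 in both with CLA in Cy3, and the fitted effect was -0.07 ± 0.06 (SE, n = 4 arrays, limma adjusted p = 0.564). Most chemokines carry other words in their descriptions. Of 33 other chemokine ligand genes named through RefSeq, looked for after the data were seen, 32 were tested. Of these, 20 lay above 0 and 12 below, with a median of 0.02, and 0 were called. At an unadjusted limma p under 0.05, 4 were higher and 3 lower, where 8.74% of all probes tested were higher and 7.15% lower. The ligand Cxcl1, a neutrophil attractant, stood at 0.41 ± 0.07 (limma adjusted p = 0.070, n = 4 arrays), with values of -0.02, 0.25, 0.65 and 0.76. Cxcl9, which interferon-gamma induces and which attracts T cells through Cxcr3, stood at 0.32 ± 0.07 (limma adjusted p = 0.142), with all 4 arrays above 0 (0.50, 0.14, 0.37 and 0.27). Ccl2 (0.21) and Ccl17 (0.22) were also higher at an unadjusted limma p under 0.05, but changed sign with the dye. Ccl2 had -0.24, -0.13, 0.51 and 0.71 on arrays 1 to 4, and Ccl17 -0.16, -0.09, 0.76 and 0.38. The 3 lower ones were Ccl9 (-0.28), Cxcl5 (-0.19, below 0 on all 4 arrays) and Ppbp (-0.18). Ppbp also changed sign with the dye (0.18, 0.17, -0.38 and -0.71). Cxcl10 stood at 0.01.

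Of 24 chemokine receptors, 17 lay above 0 and 7 below (median log2 0.05, from -0.14 to 0.31), and 14 and 10 with median centring in place of loess. Ccr1, a receptor for Ccl3 and Ccl5 on monocytes and neutrophils, was above 0 on every array (0.16, 0.61, 0.05 and 0.13), with array 2 well above the rest. Its signals were 46.0, 87.0, 68.6 and 67.4 with CLA and 62.1, 55.1, 90.9 and 37.1 with control, which overlap. The fit gave 0.24 ± 0.08 (limma adjusted p = 0.232, n = 4 arrays), and 0.13 without array 2. Ccr6, the receptor for Ccl20 on B cells and a class of helper T cells, had values of 0.23, 0.37, -0.16 and 0.47. Its effect was 0.23 ± 0.10 (limma adjusted p = 0.318), and it was 0.07 without array 4, 0.39 without array 3 and 0.11 with median centring. Cxcr1, one of the receptors through which neutrophils sense chemokines, had -0.03, 0.28, 0.02 and 0.40 and an effect of 0.17 ± 0.08 (limma adjusted p = 0.363).

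The neutrophil receptor Cxcr2, which binds Cxcl1, stood at 0.07 ± 0.06 (limma adjusted p = 0.583), with values of -0.16, -0.08, 0.16 and 0.36 that changed sign with the dye. Xcr1, the receptor for Xcl1 on cross-presenting dendritic cells, stood at 0.10 ± 0.07 (limma adjusted p = 0.471), with values of 0.16, 0.43, -0.18 and 0.01. Both were below 0 with median centring (-0.06 and -0.12). Ccr3, the eotaxin receptor of eosinophils, had the largest fitted effect among the receptors, 0.31 ± 0.18 (limma adjusted p = 0.425), and it rested on 1 array. Its ratio was 0.07, 0.15, -0.18 and 1.20, and the CLA signal was 83.1, 103, 114 and 572 against control signals of 127, 126, 207 and 174. Only array 4 put CLA far above control. Without array 4 the effect was -0.04, and without array 3 it was 0.65 (limma adjusted p = 0.020), the one call of a gene of the set in any setting tried. Ccr3 was described after its values were seen.

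**Figure D3:**
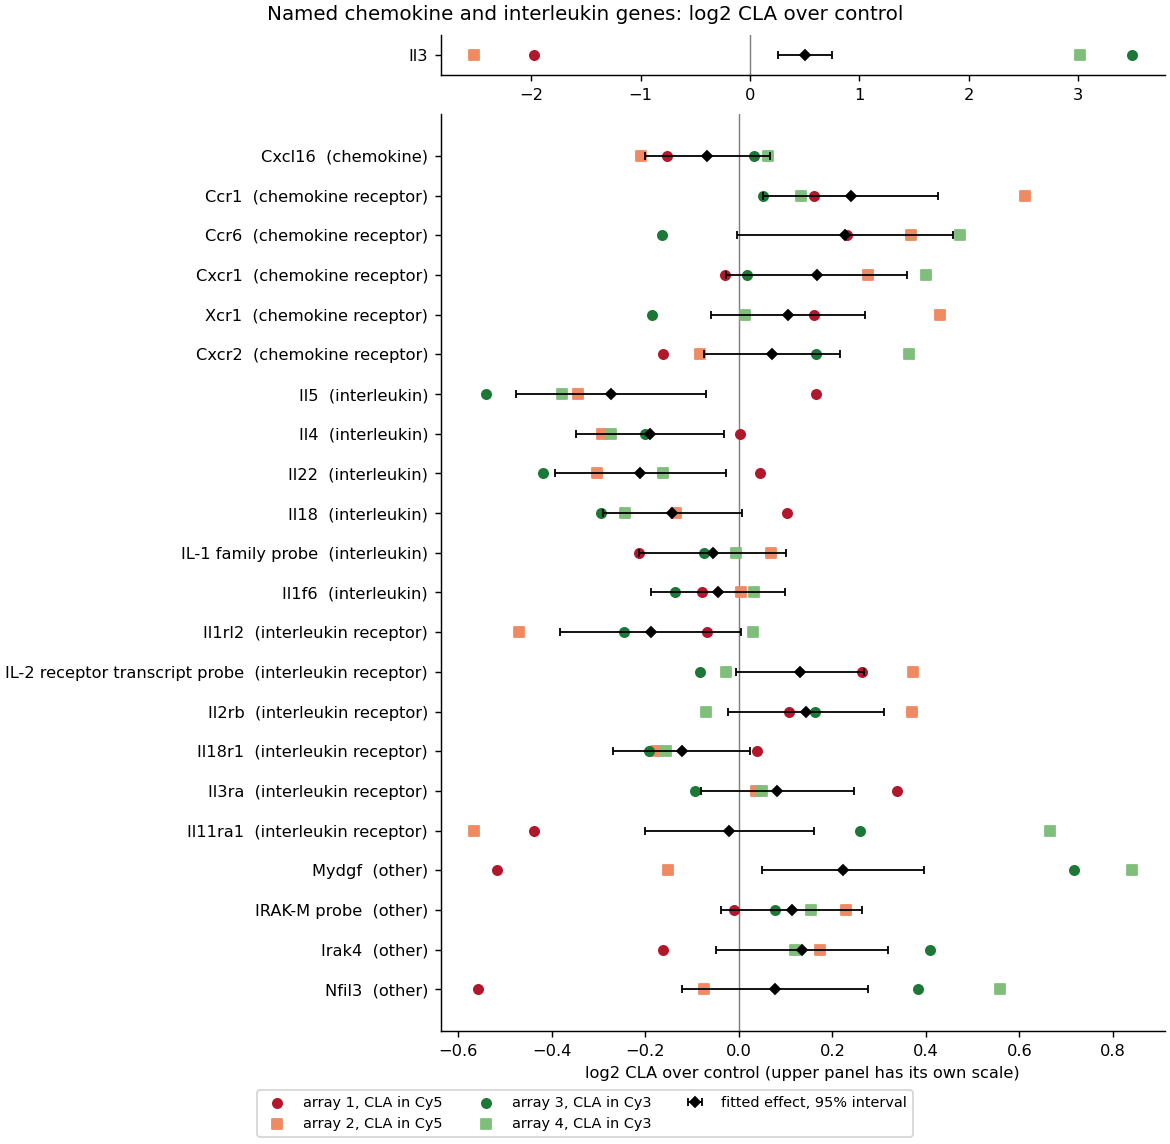
Log2 CLA over control (x axis) of 23 probes chosen by the naming rule (y axis, with class), with 1 point per array, red shades for CLA in Cy5 and green shades for CLA in Cy3, and a black diamond with a 95% interval for the fitted effect. Il3 has a panel and scale of its own, with its arrays at -1.97, -2.53, 3.49 and 3.02; Il5, Il4, Il22, Il18 and Il18r1 have array 1 above 0 and the other arrays below.

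Of 32 interleukins, 20 lay below 0 and 12 above (median log2 -0.02, from -0.27 to 0.50), and 17 and 15 with median centring. Il5, which drives the growth and survival of eosinophils, stood at -0.27 ± 0.09 (n = 4 arrays, limma adjusted p = 0.216, 95% interval -0.48 to -0.07). Its signals were 21.5, 14.3, 9.23 and 12.4 with CLA and 25.9, 29.4, 46.1 and 22.6 with control on arrays 1 to 4. All 4 control signals were above all 4 CLA signals, as held for 2 of the 102 probes (Il5 and Il22, 1.96%) and 1.87% of all probes tested. These signals are not normalised, and over all gene spots the median signal was 51.4, 86.1, 87.5 and 91.1 with CLA and 87.5, 122, 124 and 61.5 with control, so the control channel was the brighter one on arrays 1 to 3. The normalised log2 ratio of Il5 was 0.17 on array 1 and -0.34, -0.54 and -0.38 on arrays 2 to 4. The probe was well above background in control on all 4 arrays and with CLA on 1. Only 3 of its 8 readings exceeded the 95th percentile of the negative controls.

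Il4, the defining cytokine of type 2 helper T cells, stood at -0.19 ± 0.07 (limma adjusted p = 0.249), with values of 0.0023, -0.29, -0.20 and -0.27. It was above the negative controls in all 8 channels. Il13, which shares a receptor chain with Il4, stood at -0.06 ± 0.06 (limma adjusted p = 0.648). Il4, Il13 and Il5 are neighbours in the GRCm38.p6 assembly, and all 3 lay below 0 (median -0.19). Of the other neighbouring interleukins, Il24, Il20, Il19 and Il10 had 2 above 0 and 2 below (median -0.0098), and Il1f6, Il1f5 and Il1rn, the interleukin-1 receptor antagonist, had 3 below (median -0.04). Il19, an interleukin-10 family member, stood at -0.15 ± 0.06 (limma adjusted p = 0.273) and was below 0 on every array (-0.09, -0.07, -0.23 and -0.21). Il6, the main inducer of acute phase proteins in hepatocytes, stood at -0.15 ± 0.06 (limma adjusted p = 0.277), with values of 0.03, -0.08, -0.27 and -0.30. It passed the bar of the negative controls in 3 of 8 channels. Il1f6, an interleukin-36 cytokine, stood at -0.04 ± 0.06 (limma adjusted p = 0.730), and a probe described as similar to the interleukin-1 cytokine family at -0.06 ± 0.07 (limma adjusted p = 0.688).

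The authors' deposited table of genes significant in liver lists 4 genes described here as lower with CLA. Of the 775 probes that the authors' deposited table holds, 411 (53.0%) are lower. The authors' deposited table gives Il5 as 3.10-fold lower (p = 7.7e-08) and Il22 as 2.59-fold lower (p = 3.08e-16). It gives Il18r1 as 1.73-fold lower (p = 1e-05) and Il18 as 1.34-fold lower (p = 0.0004), again as values of the authors' deposited table. In the fit to the scanner signals these 4 lay below 0 and 0 passed the adjusted threshold (limma, Il5 and Il22 at an unadjusted p under 0.05). For the 3 interleukins of this table the sequence around the start of the gene is given, because they are the ones whose transcripts the table lists as lower. Each runs from 250 bases before to 50 bases after the start, from RefSeq on GRCm38.p6, at chr11:53720544-53720843 for Il5, chr10:118204714-118205013 for Il22 and chr9:50554450-50554749 for Il18, all on the plus strand. Capitals mark matches, on either strand, to the TATA box letters TATAAA, to a STAT motif, TTCNNNGAA, to an AP-1 motif, TGANTCA, or to the core of NFAT motifs, GGAAA, and no match overlaps one of another motif.
Il5: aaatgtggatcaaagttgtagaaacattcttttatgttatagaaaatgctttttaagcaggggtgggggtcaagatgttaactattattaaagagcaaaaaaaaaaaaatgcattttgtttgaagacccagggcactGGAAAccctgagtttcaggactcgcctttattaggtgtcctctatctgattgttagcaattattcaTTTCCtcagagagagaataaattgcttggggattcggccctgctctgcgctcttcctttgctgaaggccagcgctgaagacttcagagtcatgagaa
Il22: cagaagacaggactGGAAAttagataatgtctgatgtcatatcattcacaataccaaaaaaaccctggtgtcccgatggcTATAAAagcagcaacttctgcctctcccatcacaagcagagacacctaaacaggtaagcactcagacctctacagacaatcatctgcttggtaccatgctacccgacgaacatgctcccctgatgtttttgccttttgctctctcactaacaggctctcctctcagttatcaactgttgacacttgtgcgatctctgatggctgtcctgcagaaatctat
Il18: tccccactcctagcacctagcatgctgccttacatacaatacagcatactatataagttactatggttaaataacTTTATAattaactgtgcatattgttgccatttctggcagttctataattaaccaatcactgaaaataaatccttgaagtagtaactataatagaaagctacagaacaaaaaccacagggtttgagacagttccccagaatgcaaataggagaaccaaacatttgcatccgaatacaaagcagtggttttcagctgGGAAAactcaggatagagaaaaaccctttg
The matches printed are of the TATA box and NFAT letters, and those of STAT and AP-1 were in none of the 3 windows. Counted from the start of the gene, the TATA letters begin at -170 in Il22 and at -175 in Il18. The NFAT letters of Il18 begin at 20, after the start. Whether any match is a working element was not tested. The NFAT letters are short and lie in 61.3% of all 32851 promoters, and the TATA letters in 13.6%, STAT in 8.30% and AP-1 in 7.81%. A RefSeq promoter was matched to 73 of the 91 symbols of the set, with 92 windows in all, of which 76.1% held the NFAT letters, 17.4% TATA, 10.9% STAT and 15.2% AP-1.

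Il22, which acts on hepatocytes and other epithelia through a receptor that leukocytes lack, was at the limit of detection. Its signals were 8.88, 9.08, -2.44 and 5.48 with CLA and 11.7, 20.7, 20.0 and 10.2 with control. Every control signal, before normalisation, was above every CLA signal, but 1 of the 8 readings exceeded the negative controls. It was not well above background with CLA on any array and was so in control on 2. After normalisation the ratio was 0.05, -0.30, -0.42 and -0.16 on arrays 1 to 4. The fit gave -0.21 ± 0.08 (n = 4 arrays, limma adjusted p = 0.265). Set against the lowest CLA signals well above background, control was 1.01-fold higher. Because control was itself well above background on only 2 arrays, this value is not a lower bound. It takes the mean of control over the higher of the probe's own CLA signal and that lowest signal, after loess and Aquantile scaling.

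Il18, a cytokine that macrophages and epithelial cells activate through the inflammasome, alone of the 4 was above the negative controls in all 8 channels, with signals of 80.9, 102, 110 and 107 with CLA and 118, 169, 219 and 99.1 with control. Control was the higher on arrays 1 to 3 and the lower on array 4, the same order as the median of all gene spots. After normalisation the ratio was 0.10 on array 1 and -0.13, -0.29 and -0.24 on the others. The fit gave -0.14 ± 0.06 (limma adjusted p = 0.328), and -0.20 with the processed signals of the scanner. Its receptor chain Il18r1 had signals of 13.7, 19.3, 12.4 and 12.2 with CLA and 19.8, 28.1, 26.6 and 14.3 with control, which overlap, and 2 of 8 readings exceeded the negative controls. The ratio was 0.04, -0.18, -0.19 and -0.16 and the fit gave -0.12 ± 0.06 (limma adjusted p = 0.374), and 0.02 with median centring.

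**Figure D4:**
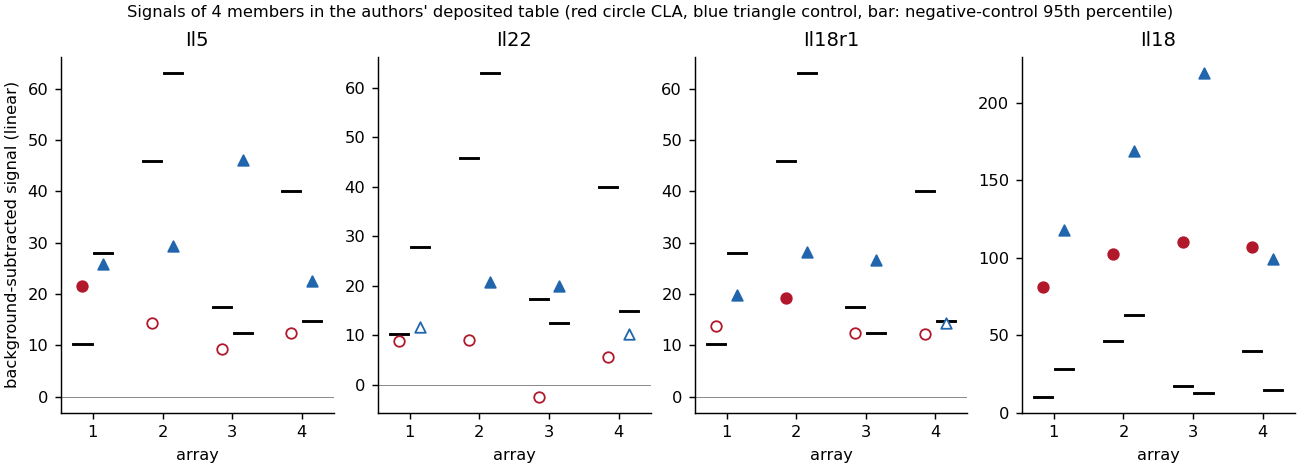
Background-subtracted signal (y axis, linear, a scale for each gene) on arrays 1 to 4 (x axis) of 4 genes listed in the authors' deposited table, with CLA as red circles, control as blue triangles, filled where well above background, and a bar at the 95th percentile of negative controls in that channel. Il18 lies above its bars in all 8 channels, and Il5, Il22 and Il18r1 in 1 to 3 of 8.

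The size of these dim differences moved with the processing. With the processed signals of the scanner, which carry no offset, the effect was -1.03 for Il5, -0.93 for Il22, -0.49 for Il18r1 and -0.76 for Il6, and without background subtraction it was -0.04, -0.03, -0.04 and -0.03. With median centring in place of loess it was -0.14, -0.05, 0.02 and -0.03. In the deposited series matrix the 3 dim genes of the authors' deposited table stood at -1.03, -0.94 and -0.50. None was called in these settings (limma, lowest adjusted p over all settings 0.102 for Il5 and 0.134 for Il22).

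Il3, a growth factor of haematopoietic progenitors and mast cells, had the lowest p of the set and the largest gap between dyes. Its signals with CLA were 11.5 and 27.8 in Cy5 on arrays 1 and 2, and 568 and 637 in Cy3 on arrays 3 and 4. With control they were 283 and 552 in Cy3 on arrays 1 and 2, and 22.0 and 17.5 in Cy5 on arrays 3 and 4. The green reading was the high one on every array, whichever diet it carried. The ratio was therefore -1.97, -2.53, 3.49 and 3.02, the dye effect was -2.75 (log2 Cy5 over Cy3, 6.73-fold), and 13 of 20292 probes had one as large in size. The diet effect left after the dye was removed was 0.50 ± 0.11 (n = 4 arrays, limma adjusted p = 0.128). The dye effect over all probes was larger on arrays 3 and 4 (slopes of 1.18 and 1.30 on the mean profile) than on arrays 1 and 2 (0.78 and 0.73), and with it made equal in size the effect of Il3 was -0.17 ± 0.15 (limma adjusted p = 0.674). The direction for Il3 thus turned with the treatment of the dye.

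For 60 of the 102 probes the dye effect exceeded the diet effect in size (58.8%, against 67.9% of all probes). Over the 102 probes the ratios of the 4 pairs of arrays with opposite dyes had r from -0.87 to -0.58, and those of arrays with the same dyes r = 0.67 (arrays 1 and 2) and 0.83 (arrays 3 and 4). Without Il3 the opposite pairs ran from -0.64 to -0.11, and the pairs of the same dyes had 0.25 and 0.57 (101 probes, which share each array's dyes and normalisation).

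**Figure D5:**
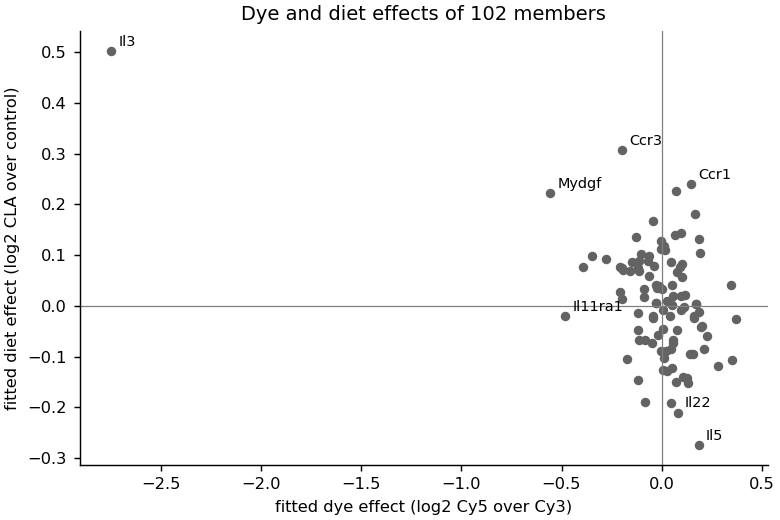
Fitted diet effect (y axis, log2 CLA over control) against fitted dye effect (x axis, log2 Cy5 over Cy3) of the 102 tested probes, 1 point each. Il3 stands alone at a dye effect of -2.75; the next in size is Mydgf at -0.56.

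Of 34 interleukin receptors, 31 were tested, 17 above 0 and 14 below (median log2 0.0066, from -0.19 to 0.18), and 0 had an unadjusted p under 0.05. Il1rl2, the receptor of the interleukin-36 cytokines, stood at -0.19 ± 0.08 (limma adjusted p = 0.323), with values of -0.07, -0.47, -0.25 and 0.03, at 0.0055 with median centring and at -0.89 with the processed signals, and 1 of its 8 readings exceeded the negative controls. A probe described as an interleukin 2 receptor transcript stood at 0.13 ± 0.06 (limma adjusted p = 0.327; 0.26, 0.37, -0.08 and -0.03), and Il2rb, the chain that interleukin-2 and interleukin-15 receptors share, at 0.14 ± 0.07 (limma adjusted p = 0.365; 0.11, 0.37, 0.16 and -0.07). Il3ra, the ligand-binding chain for interleukin-3, stood at 0.08 ± 0.07 (limma adjusted p = 0.565). Il11ra1, the alpha chain for interleukin-11, stood at -0.02 ± 0.08 (limma adjusted p = 0.915), with values of -0.44, -0.57, 0.26 and 0.67 that followed the dye. Mice carry a near-identical copy of that gene, so its probe may read both. Il10rb, the receptor chain that interleukin-10 and interleukin-22 share, stood at -0.02 ± 0.11 (limma adjusted p = 0.945), with values of -0.44, 0.31, 0.15 and -0.11.

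The receptors by which hepatocytes sense interleukin-6 and interleukin-1 had intervals that held 0. Il6ra, the interleukin-6 binding chain, had signals of 40.3, 60.5, 104 and 121 with CLA and 99.7, 101, 93.0 and 49.6 with control, which overlap. Its ratio was -0.32, -0.18, 0.44 and 0.45 and the fit gave 0.10 ± 0.06 (limma adjusted p = 0.433, 95% interval -0.04 to 0.24). The shared signalling chain Il6st was read by a pair of probes that disagreed in sign, at 0.08 ± 0.06 and -0.11 ± 0.07 (limma adjusted p = 0.534 and 0.486). The former was above the negative controls in 3 of 8 channels and the latter in all 8. Il1r1, the signalling receptor for interleukin-1, had signals of 261, 326, 382 and 335 with CLA and 377, 407, 815 and 292 with control, and stood at -0.04 ± 0.07 (limma adjusted p = 0.788, 95% interval -0.20 to 0.12). In the genomic cluster Il1r2, Il1r1, Il1rl2, Il1rl1, Il18r1 and Il18rap, 5 of 6 lay below 0 (median -0.06).

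Among the 15 other proteins, 14 were tested and 10 lay above 0 (median 0.07), and 8 with median centring. Mydgf, a secreted growth factor of bone marrow cells that the array describes under an interleukin name, had signals of 240, 1040, 680 and 618 with CLA and 554, 1770, 636 and 260 with control. Its ratio was -0.52, -0.15, 0.72 and 0.84, below 0 where CLA was in Cy5 and above 0 where it was in Cy3. The fit gave 0.22 ± 0.08 (limma adjusted p = 0.232), 0.09 with the dye size equalised and 0.04 with median centring. Irak4, a kinase that relays interleukin-1 and Toll-like receptor signals, stood at 0.14 ± 0.08 (limma adjusted p = 0.421). An IRAK-M probe, for a kinase-like inhibitor of that pathway, stood at 0.11 ± 0.07 (limma adjusted p = 0.415). Nfil3, a transcription factor that interleukin-3 induces, stood at 0.08 ± 0.09 (limma adjusted p = 0.663), with values of -0.56, -0.07, 0.38 and 0.56. The adaptor Tirap had a pair of probes, at 0.08 ± 0.06 and -0.03 ± 0.06.

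Downstream of the receptors, 48 genes of a cytokine signalling list had a tested probe outside the set, 26 above 0 and 22 below (median 0.01). One was called. Cish, a STAT5-induced suppressor of cytokine signalling, fell by 0.62 ± 0.07 on the log2 scale (n = 4 arrays, limma adjusted p = 0.043) and was lower on every array (-0.80, -1.03, -0.41 and -0.24). The call ended in 7 of 14 alternative settings, among them the processed signals (-1.02, limma adjusted p = 0.353), the dye size equalised (-0.69, limma adjusted p = 0.089) and the fit without array 2 (-0.56, limma adjusted p = 0.112). The next by p were Tnfrsf1a, a receptor for tumour necrosis factor (0.23 ± 0.07, limma adjusted p = 0.190), Jak2, a Janus kinase (0.25 ± 0.08, limma adjusted p = 0.223, and 0.09 with the dye size equalised), and Nfkb1, an NF-kappaB subunit (-0.18 ± 0.06, limma adjusted p = 0.244, and -0.06 with the dye size equalised). At an unadjusted limma p under 0.05, 6 of the 48 were higher and 2 lower, where 8.74% of all probes tested were higher and 7.15% lower.

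The cells that make or sense these signals gave marker readings whose ranges overlapped between the diets. Summed processed signals of 12 Kupffer cell and macrophage markers ran from 26040 to 45590 with CLA and from 24950 to 45970 with control (median log2 effect 0.03). The median ratio of these 12 was -0.04, -0.19, -0.09 and 0.28 on arrays 1 to 4. Without array 4 their median effect was -0.14, with 2 above 0 and 10 below. Those of 12 T and natural killer cell markers ran from 11130 to 14190 and from 10760 to 13170, and of 7 neutrophil markers from 3009 to 3710 and from 2470 to 3505. The 7 B and plasma cell markers spanned 4457 to 7779 and 3965 to 8995, the 7 endothelial markers 4836 to 7422 and 4710 to 6921, and the 5 stellate cell markers 23830 to 47560 and 21560 to 46450. The 3 hepatocyte markers with a named probe were above the negative controls in every channel with sums from 297300 to 647100 and from 268700 to 783800. Markers of exocrine pancreas, a tissue next to the liver in dissection, lay above 0 in 12 of 12 tested (median 0.32, 4 at an unadjusted limma p under 0.05, 0 called), with sums from 16990 to 43950 with CLA and from 15890 to 21100 with control. Array 4, on which the effect of Ccr3 rested, carried most of this: the median ratio of these markers was 0.03, 0.07 and 0.01 on arrays 1 to 3 and 1.10 on array 4, and without array 4 the fitted effect was above 0 in 6 of 12 (median 0.0044). Of the other lists, the stellate cell markers had 2 of 5 higher at an unadjusted limma p under 0.05 (Acta2 and Col1a2), the hepatocyte, neutrophil and T and natural killer cell markers 1 higher each, the B and plasma cell markers 1 higher and 1 lower, and the Kupffer cell and endothelial markers 0, and 0 were called. Over all probes tested, 8.74% were higher and 7.15% lower at that p. Of the 5 stellate cell markers, 3 lay above 0 and 2 below (median log2 effect 0.05). Acta2 and Col1a2 were below 0 where CLA was in Cy5 and above 0 where it was in Cy3. Their ratios on arrays 1 to 4 were -0.91, -0.56, 1.36 and 1.68 (Acta2) and -0.055, -0.15, 0.43 and 0.67 (Col1a2). The part of other cells in the results was not tested. Array 2 had brighter negative controls in Cy5 (a median of 20.6, against 4.44 to 8.25 in Cy5 of the other arrays) and was extracted from its image on another day than the other 3.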

How the data were processed

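Per the labels, total RNA from liver pools was labelled directly with Cy3 and Cy5. Per the file headers, the deposited files come from Agilent Feature Extraction A.6.1.1 and hold a mean foreground and median background intensity per spot and channel, processed intensities, and a log10 ratio of red over green. A series matrix, also deposited, gives log10 ratios, and the authors' deposited table gives a p-value, a ratio and a signed fold score per probe; the steps behind both are not given in the sources used here. Other columns hold flags per the file headers.

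In limma 3.58.1 (R 4.3.3), intensities were corrected by normexp (offset 50), normalised by loess within arrays with control spots at weight 0, and averaged over spots of a probe, without spots flagged as outliers. A probe was tested when at least 2 arrays had it well above background in the channel of 1 diet or the other, and at least 3 arrays measured it. Diet and dye were fitted to all 4 arrays, and p-values were adjusted over all probes tested. The code was tested on simulated data. The number of arrays limits the precision.

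The set, the lists and most tests were chosen with earlier results of these data known. Probes named were those past the threshold, per class the 3 with the lowest p and the 2 with the highest intensity, and those in the authors' deposited table, of which 1 is not reported here. Il6, Il19, Il13, Ccr3, Il6ra, Il6st, Il1r1, Il10rb, Tirap, Acta2, Col1a2, Cxcl1, Cxcl9, Ccl2, Ccl17, Ccl9, Cxcl5, Ppbp, Cxcl10 and the genes of the clusters and of counts were named after their values were seen. Alternatives changed the signals, offset, normalisation, filter, dye term, variance model and arrays.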

Additional observations from a re-analysis of the deposited data

Results flagged for a closer look

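Among 34 probes described above, 1 had an array far from the other 3 by Dixon's gap test over the 4 ratios. For Il18r1 the log2 CLA over control as measured was 0.039 on array 1, and -0.18, -0.19 and -0.16 on arrays 2 to 4, with a gap of 0.842 of the range. Chance gives such a gap in about 1 of 20 groups.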

How the results depend on the processing

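The count of 14 probes called over all genes (7 higher, 7 lower) was 0 with processed signals (2753 at an unadjusted limma p under 0.05), without background subtraction (3426), with a normexp offset of 10 (2790), with no dye term (294), with the dye size equalised (1882) and in the deposited series matrix (2746). It was 162 with median centring (32 higher, 130 lower), 52 with both channels well above background on all arrays (35 higher) and 46 with an intensity trend (35 higher). Leaving out 1 array gave 2 to 84 (42, 2, 84 and 73 without arrays 1 to 4). The count of 0 called in the set held in all settings but 1: it was 0 to 1 when 1 array was left out, the 1 being Ccr3 at 0.65 without array 3. The 8 at an unadjusted p under 0.05 became 4 without background subtraction, 15 with median centring, 4 with both channels well above background (73 of the set tested) and 0 with no dye term, and 2 to 26 without 1 array (26 without array 1, where 22.2% of all probes had such a p, 2 without array 2, 8 without array 3, 5 without array 4). The number above 0, 56 in the main fit, ran from 50 without array 2 to 57 with median centring. With both channels well above background it was 40, of the 73 tested there. The 87.3% of readings well above background became 98.6% with the scanner's weaker test of significance and 77.6% by the negative controls, a bar added after the data were seen, and was 87.3% without outlier-flagged spots. Of the 34 probes described with values, 21 kept their sign throughout. With median centring signs turned for Cxcr2 (-0.061), Il18r1 (0.023), Il1rl2 (0.0055), Il3ra (-0.093), Nfil3 (-0.060) and Xcr1 (-0.12), and with the dye size equalised for Il1r1 (0.0076), Il3 (-0.17), Nfil3 (-0.018) and the second Tirap probe (0.066). Without 1 array signs turned for Ccr3 (-0.038 to 0.65), Il10rb (-0.21 to 0.17), Il11ra1 (-0.12 to 0.082), Il1r1 (-0.11 to 0.029), Nfil3 (-0.043 to 0.20) and the interleukin-1 cytokine family probe (-0.13 to 0.014). The causes were not tested. The 4 arrays are on 4 slides and array 2 alone was extracted on another day, so a block for that day is the fit without array 2. No paired analysis was possible because the labels number the arrays 1 to 4, with no number shared between the dye orientations; each array already sets CLA against control.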
